A study of Mus musculus with 6 samples.

Results

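The miR-15/16 family was measured in exosomes of RAW264.7 cells, a mouse macrophage line, that had been kept on titanium disks with small-scale topography (labelled micro-/nano-, 3 libraries) or on smooth titanium disks (3 libraries). The family was taken from the deposited table by name: every row named miR-15a, miR-15b, miR-16, miR-195, miR-322, miR-424 (as miR-322 is called in human and cattle), miR-497 or miR-503, in any species, arm or end form. This gave 11 distinct sequences among the 2731 rows (2704 distinct sequences) of the table. Of these 11, 3 were named miR-15a, 1 miR-15b, 2 miR-16, 2 miR-322, 1 miR-424, 1 miR-497 and 1 miR-503, and none miR-195. Both groups were the same unmodified cell line, with no other agent labelled, and were grown in medium that the labels call free of exosomes, whereas the study's methods describe medium with fetal bovine serum. Whether the 3 libraries per disk were separate cultures is not stated, and the p-values therefore measure only the spread among libraries, possibly a technical one.

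A microRNA pairs with messenger RNAs mainly through its seed, bases 2 to 8 from the 5′ end, and lowers the protein made from them. The miR-15/16 family shares 1 seed and is known as a brake on cell division and survival, with the anti-apoptotic gene Bcl2 and the G1 cyclins among its best studied targets. Its members are made from several places in the mouse genome. Mir15a and Mir16-1 lie in an intron of the long non-coding RNA gene Dleu2, Mir15b and Mir16-2 in an intron of Smc4, a condensin gene, Mir195a and Mir497 side by side on chromosome 11, and Mir322 and Mir503 together on the X chromosome. miR-503 has a related but not identical seed. Each hairpin can give a 5p and a 3p strand, and in this family the 5p strand is the usual guide.

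The 9 sequences of the 5p strand are printed below as they stand in the table, 5′ to 3′, with the seed in capitals, because the shared seed is what makes them a family and the bases after it are what tells them apart.
miR-16-5p, 22 nt: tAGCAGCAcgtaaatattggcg
miR-15b-5p, 21 nt: tAGCAGCAcatcatggtttac
miR-15a-5p, 21 nt: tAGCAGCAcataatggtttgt
miR-15a-5p, 18 nt: tAGCAGCAcataatggtt
miR-497-5p, 21 nt: cAGCAGCAcactgtggtttgt
miR-503-5p, 20 nt: tAGCAGCGggaacagtactg
miR-16 variant, 21 nt: tAGCAGCAcgtaaatattgga
miR-424-5p, 21 nt: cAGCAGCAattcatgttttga
miR-322-5p, 21 nt: cAGCAGCAattcatgttttgg

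Among all 2704 distinct sequences, 8 carried the seed of miR-16-5p and all 8 were family members, so the name rule missed no sequence with this seed. The seed of miR-503-5p was carried by 1 sequence, miR-503-5p itself. With positions counted from 1 at the 5′ end and the base of miR-16-5p given first, miR-503-5p first differed from miR-16-5p at the last base of the seed (A8G), and 11 of their 20 aligned bases were the same. miR-15b-5p and the 21-nt miR-15a-5p had the fewest differences among members of at least 20 nt that matched different genes exactly, the same at 18 of 21 bases, with C12A, A20G and C21T (miR-15b base first). The 18-nt form of miR-15a-5p ended before positions 20 and 21, so C12A was its only difference from miR-15b-5p.

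The sequences were compared with the RefSeq mature microRNAs of mouse (GRCm38.p6), where the family has 17 mature names, and 8 of these names shared their first 17 bases with a row of the table. miR-16-5p was the full mature sequence and matched both Mir16-2 (chr3:69009918-69009939, plus strand, intron of Smc4) and Mir16-1 (chr14:61631936-61631957, minus strand, intron of Dleu2), so its reads could not be assigned to one gene. miR-15b-5p was 1 base short of the RefSeq end and lay at chr3:69009775-69009795 on the plus strand, in the same Smc4 intron as Mir16-2. The 21-nt and 18-nt forms of miR-15a-5p were 1 and 4 bases short and began at the same base of Mir15a (chr14:61632076-61632096 for the longer form, minus strand, intron of Dleu2). miR-497-5p was 1 base short (chr11:70234730-70234750, plus strand), miR-503-5p was 3 bases short (chrX:53054030-53054049, minus strand) and miR-322-5p was 1 base short (chrX:53054307-53054327, minus strand), each in its hairpin. Apart from microRNA genes, no gene was annotated at these positions.

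Of the 11 sequences, 3 had no exact match. The miR-16 variant, named after goat miR-16a, differed from mouse miR-16-5p by C21A, and the sequence named after bovine miR-424-5p differed from mouse miR-322-5p by G21A, both at their last base (mouse base first). The 3p strand of miR-15a was listed only in a form with A22T. No row shared its first 17 bases with miR-195a-5p, whose RefSeq sequence, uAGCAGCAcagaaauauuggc (chr11:70235062-70235082, plus strand), has the same seed and lies next to Mir497, so miR-195a was not listed while its neighbour was.

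By level, miR-16-5p and miR-15b-5p made up most of the family. The deposited value is a normalized signal per sequence and library, mostly a multiple of the value of 1 read, and no correction for unequal adapter ligation is described, so the order below is an order of listed values. miR-16-5p had the highest mean over the 6 libraries and ranked 13 among all distinct sequences. miR-15b-5p ranked 29, the 21-nt miR-15a-5p 77, the 18-nt miR-15a-5p 154, miR-497-5p 176, miR-503-5p 200, and the miR-16 variant 220. The miR-424-5p sequence ranked 420, miR-322-5p 489, miR-322-3p 659 and the miR-15a-3p variant 1058. Over the 6 libraries miR-16-5p averaged 2.99 times the value of miR-15b-5p, and these 2 sequences held 92.2% of the family's mean value.

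**Figure D1:**
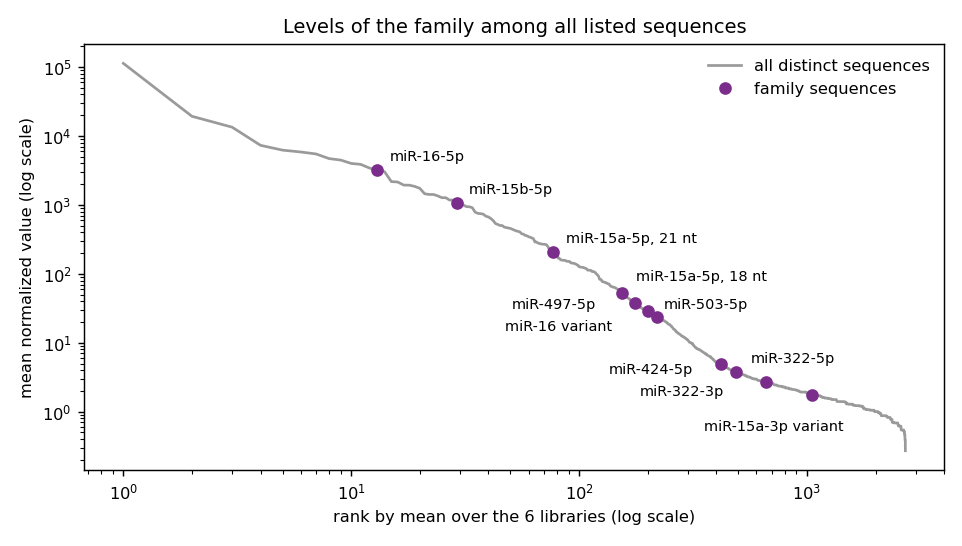
Mean normalized value over the 6 libraries (vertical axis, log scale) against rank (horizontal axis, log scale) for all 2704 distinct sequences (grey line) and the 11 family sequences (purple points). miR-16-5p stands at rank 13 and miR-15b-5p at rank 29, while the lowest member stands at rank 1058.

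The first 4 members kept their order among themselves in every library: the lowest value of miR-16-5p, 2442, lay above the highest of miR-15b-5p, 1289, and the ranges of miR-15b-5p, 21-nt miR-15a-5p and 18-nt miR-15a-5p did not overlap either. Below them, the ranges of neighbours overlapped. The 18-nt miR-15a-5p exceeded miR-497-5p in 4 of 6 libraries, miR-497-5p exceeded miR-503-5p in 4 of 6, and miR-503-5p exceeded the miR-16 variant in 3 of 6. The miR-16 variant exceeded the miR-424-5p sequence in 5 of 6, with listed values of 13.2 or more against at most 7.43, and overlapped it only through the library where it was listed at 0. Stability over the 6 libraries was unequal. The coefficient of variation was 13.3% for both miR-15b-5p and miR-497-5p, 18.5% for miR-16-5p and 19.9% for 21-nt miR-15a-5p. It was 53.5% for 18-nt miR-15a-5p and 54.3% for miR-503-5p, whose highest value was 6.74 times its lowest.

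No member was called as different between the disks. In limma with Benjamini-Hochberg adjustment over the 536 sequences tested (values summing to at least 20), 0 of the 9 tested members were called, against 0% of all tested sequences, and 0 members had an unadjusted p under 0.05, against 2.24% of all tested sequences (12 of 536). The 3 values of each disk overlapped for all 11 members, the 9 tested ones included. They did not overlap for 6.90% of the tested sequences (37 of 536). With so small a share and so few members, this does not set the family apart from the rest. Log2 fold changes, small-scale topography over smooth on the log2(value + 1) scale, were positive for 4 tested members and negative for 5, with a median of -0.20, and the median over all tested sequences was 0.01. The smallest adjusted p over all sequences was 0.823 (limma).

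**Figure D2:**
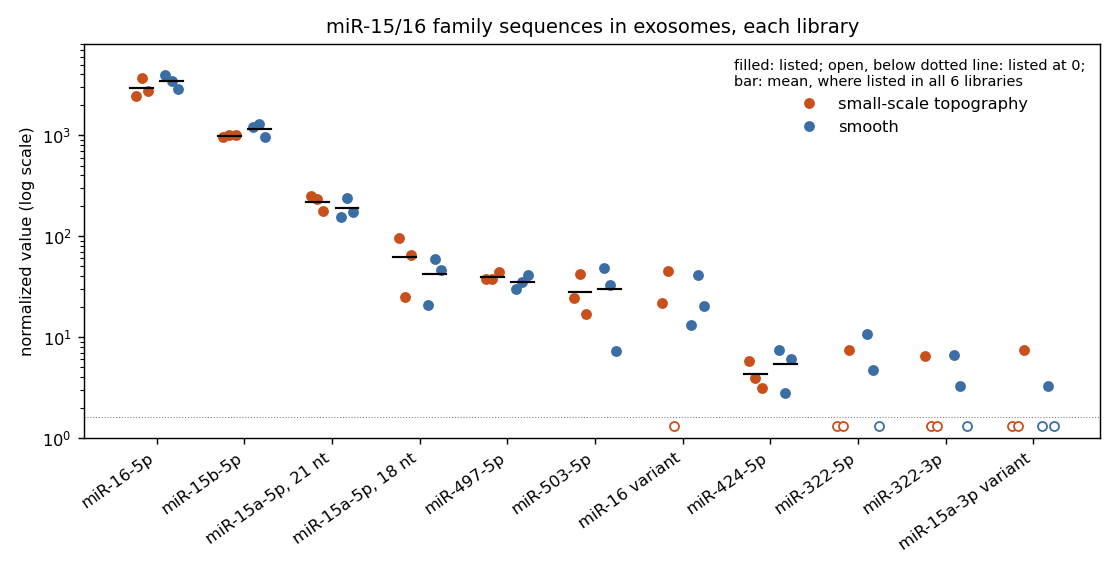
Normalized value (vertical axis, log scale) of the 11 family sequences in each small-scale topography library (orange, left) and each smooth library (blue, right), with the group mean as a bar for sequences listed in all 6 libraries and open circles for libraries where a sequence is listed at 0. The ranges of the orange and blue points overlap for every sequence.

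miR-16-5p is among the members tied to loss of the Dleu2 region in human leukaemia. Its values were 2442, 3686 and 2730 in small-scale topography libraries 1 to 3, against 3917, 3473 and 2857 in smooth libraries 1 to 3. Small-scale topography library 2 was above 2 of the smooth libraries, and the other 2 small-scale libraries were below all of them. The means were 2953 ± 651 for small-scale topography and 3416 ± 532 for smooth disks (SD, n = 3 each), and the log2 fold change was -0.22 (SE 0.25, 95% interval -0.74 to 0.30, limma adjusted p = 0.823). These values rest on 1899 to 2598 reads in a small-scale library and 2371 to 7451 in a smooth library, as read from the steps of the values. As a share of the normalized total, miR-16-5p held 1.13%, 1.28% and 0.963% in small-scale topography libraries, against 1.40%, 1.21% and 1.19% in smooth libraries. All values are relative to their library, so neither the number of vesicles nor the amount of a microRNA per vesicle was measured.

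miR-15b-5p, which shares the Smc4 intron with Mir16-2, had values of 950.2, 1005 and 1006 in small-scale topography libraries and 1197, 1289 and 951 in smooth libraries. The small-scale values lay within a narrow band, and smooth library 3 fell into that band while the other 2 smooth libraries were above it. The means were 987 ± 31.9 for small-scale topography and 1146 ± 175 for smooth disks (SD, n = 3 each), with a log2 fold change of -0.20 (SE 0.25, 95% interval -0.71 to 0.31, limma adjusted p = 0.823).

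miR-15a-5p, the partner of Mir16-1 in the Dleu2 intron, was listed in 2 lengths, and both had positive log2 fold changes that did not pass the test. Its 21-nt form had values of 249, 231 and 179 in small-scale topography libraries and 153, 239 and 174 in smooth libraries, with smooth library 2 among the high values and small-scale library 3 among the low ones. The means were 219.9 ± 36.8 for small-scale topography and 188 ± 44.8 for smooth disks (SD, n = 3 each), and the log2 fold change was 0.23 (SE 0.32, 95% interval -0.43 to 0.90, limma adjusted p = 0.853). The 18-nt form had values of 95.2, 24.9 and 65.2 in small-scale topography libraries, against 20.6, 59.7 and 45.8 in smooth libraries. Its highest value was in a small-scale library and its lowest in a smooth one, but small-scale library 2 was below 2 of the smooth libraries. Its means were 61.7 ± 35.3 for small-scale topography and 42.0 ± 19.8 for smooth disks (SD, n = 3 each), with a log2 fold change of 0.47 (SE 0.58, 95% interval -0.70 to 1.65, limma adjusted p = 0.823). That fold change was 0.07 without small-scale topography library 1, 0.04 without smooth library 1, 1.02 without small-scale topography library 2 and 0.78 without smooth library 2.

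miR-497-5p comes from the chromosome 11 cluster it shares with miR-195a. Its values were 37.3, 37.3 and 44.1 in small-scale topography libraries and 29.7, 34.95 and 41.0 in smooth libraries. All 6 values lay close together, and the groups were interleaved at the top. The log2 fold change was 0.17 (SE 0.56, 95% interval -0.98 to 1.32, limma adjusted p = 0.943).

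The X-linked members were low. miR-503-5p, which with miR-322 is known to hold back the cell cycle during differentiation, had values of 24.4, 41.9 and 16.8 in small-scale topography libraries and 48.7, 33.1 and 7.23 in smooth libraries. The highest and the lowest value both came from smooth disks, the lowest of them standing for 6 reads. Its mean was 27.7 ± 12.9 for small-scale topography and 29.7 ± 20.95 for smooth disks (SD, n = 3 each), while its log2 fold change was positive, 0.16 (SE 0.76, 95% interval -1.39 to 1.71, limma adjusted p = 0.968), so the means and the log scale differed in sign. The log2 fold change became -0.61 without smooth library 3 and -0.18 without small-scale topography library 2.

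miR-322-5p was listed at 0 in small-scale topography libraries 1 and 2 and at 7.36 in library 3, against 10.7, 4.66 and 0 in smooth libraries. The sequence named miR-424-5p, which has the same first 20 bases as miR-322-5p, was listed in all 6 libraries, with values of 5.79, 3.88 and 3.15 in the small-scale libraries and 7.43, 2.80 and 6.03 in the smooth ones. The values of the miR-424-5p sequence stood for 2.5 to 9 reads and were not whole reads in small-scale libraries 1 and 2. Log2 fold changes were -0.997 (SE 1.68, limma adjusted p = 0.885) for miR-322-5p and -0.24 (SE 1.41, limma adjusted p = 0.976) for the miR-424-5p sequence. Neither size was stable: with 1 library left out they ranged from -2.02 to -0.23 for miR-322-5p and from -0.58 to -0.00041 for the miR-424-5p sequence, and for miR-322-5p pseudocounts of 5 and 0.1 gave -0.43 and -2.04. Sequences under about 5 reads are mostly not listed, a limit equal to values of 5.25 to 7.77 in small-scale topography libraries and 2.33 to 6.03 in smooth libraries, and a value listed at 0 may lie below it.

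The miR-16 variant with C21A had values of 21.9, 45.1 and 0 in small-scale topography libraries and 13.2, 41.5 and 20.5 in smooth libraries. Apart from the library where it was listed at 0, the groups had overlapping ranges. It had the lowest log2 fold change of the tested members, -1.21 (SE 1.11, 95% interval -3.47 to 1.05, limma adjusted p = 0.823), and this sign rested on that library, since the log2 fold change was 0.47 without small-scale topography library 3.

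**Figure D3:**
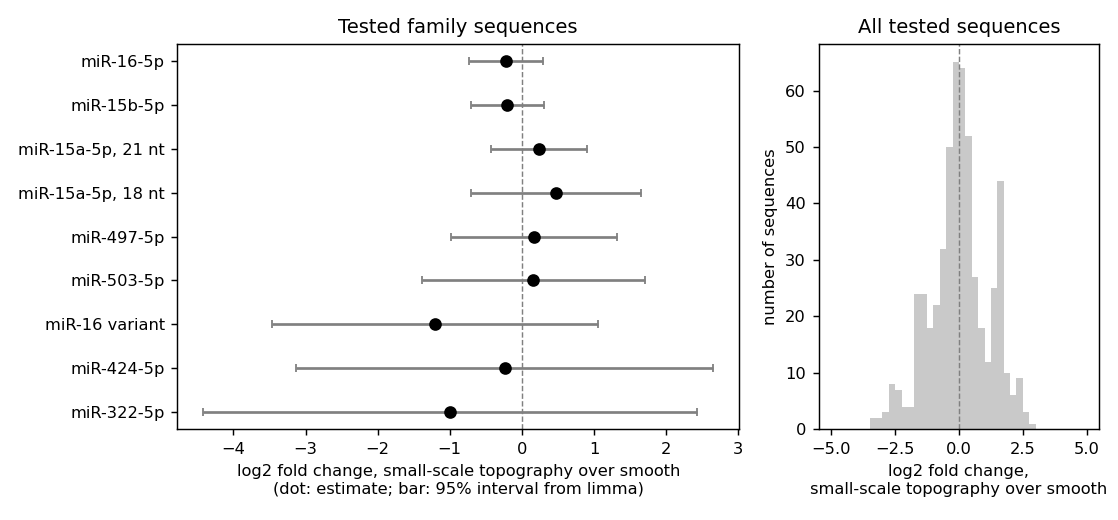
Left, log2 fold change of the 9 tested family sequences, small-scale topography over smooth (horizontal axis), with the 95% interval from limma as a bar. Right, the number of sequences (vertical axis) by log2 fold change for all 536 tested sequences. Every interval on the left includes 0, running from -0.74 to 0.30 for miR-16-5p and from -4.42 to 2.43 for miR-322-5p.

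Summed over all 11 sequences, the family total was 3832, 5076 and 4059 in small-scale topography libraries and 5404, 5184 and 4102 in smooth libraries. The highest 2 totals were on smooth disks, and the third smooth library lay among the small-scale ones. The means were 4322 ± 662 for small-scale topography and 4897 ± 697 for smooth disks (SD, n = 3 each), a log2 difference of -0.18 (two-sided exact permutation test, p = 0.2, where 0.1 is the smallest possible). As a share of the normalized total, the family held 1.66% ± 0.197 for small-scale topography and 1.82% ± 0.114 for smooth disks (SD, n = 3 each, two-sided exact permutation test, p = 0.4).

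Within the family, the makeup was alike in its order in all 6 libraries. miR-16-5p held 63.7%, 72.6% and 67.3% of the family total in small-scale topography libraries and 72.5%, 67.0% and 69.7% in smooth libraries. miR-15b-5p held 24.8%, 19.8% and 24.8% on small-scale topography, against 22.2%, 24.9% and 23.2% on smooth disks. miR-15a-5p, both lengths together, held 8.99%, 5.05% and 6.01% in the small-scale libraries and 3.21%, 5.75% and 5.35% in the smooth ones (two-sided exact permutation test, p = 0.4). The lowest miR-15a-5p share was in smooth library 1 and the highest in small-scale library 1, and the other 4 libraries overlapped.

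**Figure D4:**
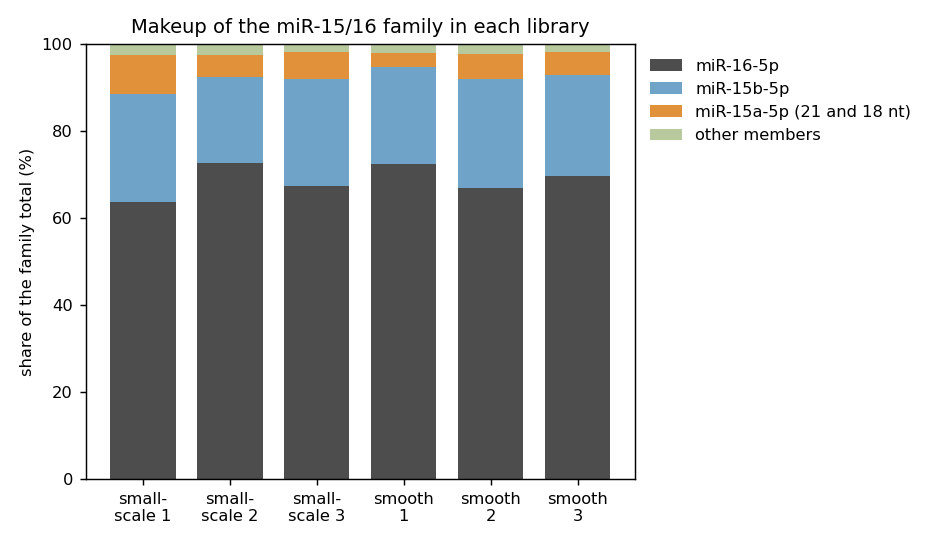
Share of the family total (vertical axis, percent) held by miR-16-5p, miR-15b-5p, miR-15a-5p (21-nt and 18-nt forms together) and the other members in the 3 small-scale topography libraries (left) and the 3 smooth libraries (right). miR-16-5p holds 63.7% to 72.6% of the family in all 6 libraries.

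The ratio of miR-15b-5p to miR-15a-5p compares the near-identical products of the Smc4 and the Dleu2 introns within a library, so it does not depend on the scaling of the libraries. It was 2.76, 3.92 and 4.13 in small-scale topography libraries and 6.90, 4.32 and 4.34 in smooth libraries. All 3 small-scale values were below all 3 smooth values, but the highest small-scale value was close to the 2 lower smooth values. The means were 3.60 ± 0.738 for small-scale topography and 5.19 ± 1.49 for smooth disks (SD, n = 3 each), a log2 difference of -0.51 (two-sided exact permutation test, p = 0.1, the smallest possible, and 0.3 after Benjamini-Hochberg adjustment over the 3 ratios computed among miR-16, miR-15a and miR-15b). This ratio was chosen after the values of the members were seen.

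The non-overlap of this ratio depended on the 18-nt form and its size on smooth library 1. With the 21-nt form of miR-15a-5p alone, the ratio was 3.81, 4.34 and 5.63 in small-scale topography libraries and 7.84, 5.40 and 5.48 in smooth libraries, the groups overlapped, and the log2 difference was -0.44 (two-sided exact permutation test, p = 0.3). Without smooth library 1 the log2 difference with both forms was -0.29, and without small-scale topography library 1 it was -0.33. In reads, miR-15a-5p made up 26.6% (95% Wilson interval 24.0% to 29.4%), 20.3% (17.7% to 23.2%) and 19.5% (17.4% to 21.9%) of both miR-15 microRNAs in small-scale topography libraries. In smooth libraries it made up 12.7% (11.1% to 14.3%), 18.8% (17.5% to 20.1%) and 18.7% (16.4% to 21.3%). Small-scale libraries 2 and 3 and smooth libraries 2 and 3 therefore overlapped within counting error, the only error these intervals cover, and library 1 of each disk stood apart from its group in opposite directions. The ratio of miR-16-5p to miR-15b-5p was 2.57, 3.67 and 2.71 in the small-scale libraries and 3.27, 2.69 and 3.01 in the smooth ones, with no such separation (two-sided exact permutation test, p = 1).

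**Figure D5:**
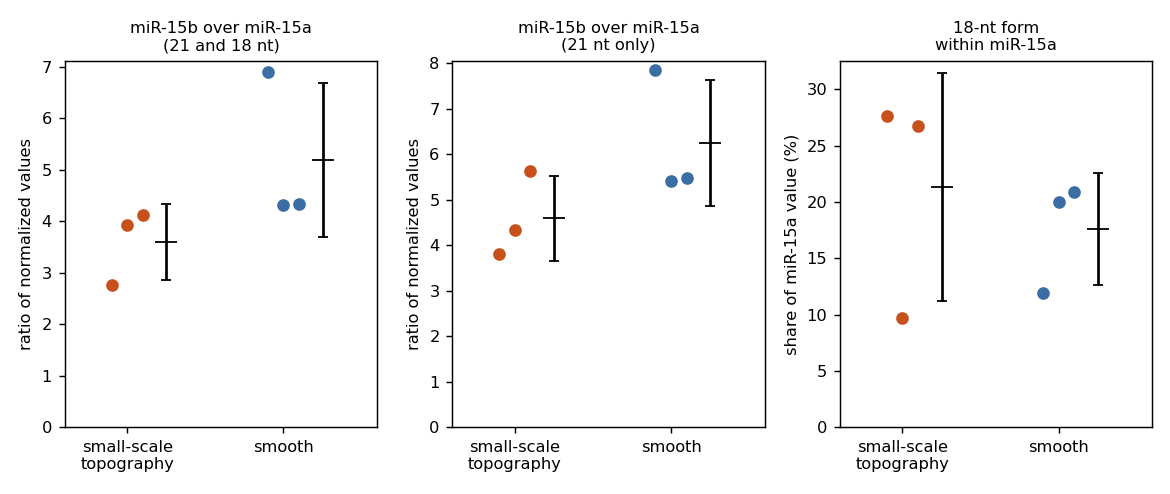
Ratio of miR-15b-5p to miR-15a-5p with both miR-15a lengths (left) and with the 21-nt form only (middle), and the percent of the miR-15a-5p value in the 18-nt form (right), in each small-scale topography library (orange) and smooth library (blue), with the mean and SD in black (n = 3 each). The groups do not overlap on the left (2.76 to 4.13 on small-scale topography, 4.32 to 6.90 on smooth disks) and overlap in the middle and on the right.

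End forms were compared next. Of the miR-15a-5p value, the 18-nt form held 27.6%, 9.70% and 26.7% in small-scale topography libraries and 11.9%, 20% and 20.9% in smooth libraries (two-sided exact permutation test, p = 0.6). Both groups held 1 low library, small-scale 2 with a 95% Wilson interval of 6.06% to 15.2% and smooth 1 with 8.20% to 16.98%. The value carried by all 18-nt named microRNAs, which did not separate the groups either, was 2.12%, 0.704% and 1.33% of the named value in small-scale topography libraries and 0.723%, 1.01% and 1.96% in smooth libraries. The same 2 libraries had the lowest 18-nt share on their disk, and the part of these library-wide shares in the miR-15a-5p values was not tested. Over the whole family, names with an end or base difference held 36.1%, 27.3% and 32.7% of the total on small-scale topography, against 27.4%, 33.0% and 30.2% on smooth disks (means 32.0% ± 4.45 and 30.2% ± 2.79, SD, n = 3 each, two-sided exact permutation test, p = 0.7). This share is close to the family without miR-16-5p, since miR-15b, miR-15a, miR-497, miR-503 and miR-322-5p were each listed only in forms named as differing at an end.

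The 3p strands were listed at or near 0. miR-322 was the only member with both strands listed as exact matches. Its hairpin in RefSeq, Mir322 (chrX:53054255-53054349, minus strand), is printed with the stretches of miR-322-5p and miR-322-3p found in the table in capitals, to show where on the hairpin the listed strands lie.
Mir322: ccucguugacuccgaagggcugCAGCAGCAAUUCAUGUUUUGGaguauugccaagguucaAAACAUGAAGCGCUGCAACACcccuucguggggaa

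miR-322-3p was listed at 6.43, 0 and 0 in small-scale topography libraries and at 6.61, 3.26 and 0 in smooth libraries, and the miR-15a-3p variant at 0, 0 and 7.36 in the small-scale libraries and at 0, 3.26 and 0 in the smooth ones. Both were below the level needed for the test, and no listed value of either stood for more than 8 reads. The 5p strand carried 99.8%, 100% and 99.8% of the family total in the small-scale libraries and 99.9%, 99.9% and 100% in the smooth ones (two-sided exact permutation test, p = 0.6). The RefSeq 3p strands of miR-15b, miR-16-1, miR-16-2, miR-195a, miR-497a and miR-503 shared their first 17 bases with no row.

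Of the microRNAs next to Mir322 and Mir503 on the X chromosome, miR-351, miR-542 and miR-450b were also low, and no row was named miR-450a. They were listed as 7 sequences, of which 3 were tested, 0 were called and 0 had an unadjusted p under 0.05 (limma), with 1 positive and 2 negative log2 fold changes. The highest of them, miR-351-5p, had values of 7.72, 18.6 and 11.6 in small-scale topography libraries and 30.6, 17.2 and 18.1 in smooth libraries, with a log2 fold change of -0.78 (SE 0.86, limma adjusted p = 0.823). Summed, the partners came to 7.72 to 37.5 in small-scale topography libraries and 34.0 to 63.6 in smooth libraries, ranges that overlapped slightly. The seed of miR-103-3p and miR-107-3p overlaps that of miR-16 with a shift of 1 base. The sequence named miR-103-3p, 23 nt long, had a log2 fold change of -0.05 (SE 0.26, limma adjusted p = 0.968). That named miR-107-3p, listed only as an 18-nt form, had one of 0.22 (SE 0.31, limma adjusted p = 0.866). Whether so short a form can be told apart from miR-103-3p was not tested, so its name is the deposited one only.

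Across the 6 libraries, the 5 tested sequences outside the family whose log2 values ran most like the family total, among 245 listed in all 6, were miR-222-3p (Pearson r = 0.99), miR-7a-5p (0.95), miR-26a-5p (0.95), miR-10a-5p (0.95) and miR-106b-3p (0.93). miR-222-3p had values of 134, 228 and 132 in small-scale topography libraries and 263, 254 and 149 in smooth libraries, high in the same 3 libraries as the family total. These are descriptions over 6 points that share their scaling, and the sequences were selected for the likeness.

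The libraries held the value of 167366 to 269693 reads in the small-scale libraries and of 198945 to 617301 reads in the smooth ones, and the family itself 2980 to 3862 and 3404 to 11122 reads. Of 10 sequences of myeloid microRNAs, 0 were called by limma, against 0% of all tested sequences. Their sums were 81049 to 128529 in the small-scale libraries and 95021 to 131310 in the smooth ones, nearly all of it miR-21-5p. Both groups carry the macrophage label, so a comparison of the disks cannot check that label. Of these 10 sequences, 8 had a negative log2 fold change, with a median of -0.39, where 49.4% of all tested sequences were negative, the same sign as the family total. The 1 with an unadjusted p under 0.05 (2.24% of all tested sequences) was miR-146a-5p, with values of 282, 197 and 91.4 in the small-scale libraries and 493, 315 and 300.1 in the smooth ones. These ranges did not overlap (log2 fold change -1.06, SE 0.36, limma adjusted p = 0.823). Another sequence named miR-146a-5p, 23 nt long, had values of 14.1, 26.4 and 0 in the small-scale libraries and 4.95, 8.39 and 32.5 in the smooth ones. Its ranges overlapped (log2 fold change -0.73, SE 1.29, limma adjusted p = 0.893). The part of this shift in the family's values was not tested. Of the defining markers of the lineage, miR-142-5p was listed in all 6 libraries (107.2 to 123 on small-scale topography, 100.02 to 205 on smooth disks), whereas miR-223-3p was listed at 0 in 2 of the 3 small-scale libraries and at 20.2 in the other, and at 9.64 to 28.9 on smooth disks. miR-155-5p was listed in all 6 libraries with a log2 fold change of 0.10, mir-223-p5 had one of 0.49 and miR-142-3p one of -0.59, and none of them passed the test. The erythroid list summed to 90.0 to 119.8 in the small-scale libraries and 70.1 to 109.8 in the smooth ones, and 0 of its 3 tested sequences were called. Within it miR-451-5p stood at 5.25 to 7.77 in the small-scale libraries and 0 to 16.5 in the smooth ones. miR-486 had values of 24.4, 51.3 and 21.02 in the small-scale libraries and 14.9, 17.2 and 7.23 in the smooth ones. These ranges did not overlap, as for 6.90% of all tested sequences (log2 fold change 1.21, SE 0.80, limma adjusted p = 0.823). The remaining tested sequence, miR-144-3p, had values of 57.9, 34.2 and 93.5 in the small-scale libraries and 78.4, 39.6 and 80.7 in the smooth ones. Its ranges overlapped and its sign was negative (log2 fold change -0.14, SE 0.50, limma adjusted p = 0.823). The muscle list summed to 5.25 to 9.32 in the small-scale libraries and 0 to 9.32 in the smooth ones.

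The liver microRNA miR-122-5p stood near the level of miR-16-5p, with values of 3351, 3491 and 3102 in small-scale topography libraries and 2295, 2255 and 3726 in smooth libraries. The ratio of miR-16-5p to miR-122-5p was 0.729, 1.06 and 0.880 in the small-scale libraries and 1.71, 1.54 and 0.767 in the smooth ones (two-sided exact permutation test, p = 0.3). In this ratio smooth library 3 lay within the small-scale range and the other 2 smooth libraries above it, as for the level of miR-15b-5p. The level of miR-16-5p did not divide in this way, since small-scale library 2 (3686) lay above smooth libraries 2 (3473) and 3 (2857). The part of such other sources of RNA in the family's values was not tested.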

How the data were processed

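Exosome small RNA of RAW264.7 cells was measured in 3 libraries per disk. TruSeq small RNA libraries were sequenced by the authors, who trimmed the 3′ adapter, kept reads of 18 to 26 nt, discarded those that matched mRNA, structural RNA or repeats, and assigned names with ACGT101-miR. What they deposited is a normalized signal for each sequence in each library and not a count. How it was scaled, and which versions of the program, of miRBase and of the genome served, is not given in the sources used here. Among these data, the copy analysed holds 2731 rows and 1 emptied line.

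Rows with the same sequence and values were counted once, except in the normalized total and the reads of a whole library, which sum all 2731 rows. Small-scale topography was compared with smooth by limma 3.58.1 (R 4.3.3; eBayes, trend = TRUE) on log2(value + 1), without covariates, for the 536 sequences with a summed value of 20 or more, and p-values were adjusted by Benjamini-Hochberg (threshold 0.05). On this scale the added 1 shrinks the fold change of low sequences, while a value listed at 0 can enlarge it. The miR-16 variant, for instance, had means of 22.3 for small-scale topography and 25.1 for smooth disks but a log2 fold change of -1.21. Single values were compared by exact permutation tests. The value of 1 read, taken from the smallest step, was 1.29, 1.55 and 1.05 in small-scale topography libraries and 0.826, 0.466 and 1.21 in smooth libraries. Within 0.02 reads, 87.9% to 92.7% of the listed values were whole, so no test for counts was run.

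The members and the lists of partners and markers were chosen with earlier results of these data known. Values are given for the 5 highest members, for the most abundant sequence of each microRNA and arm, and for other members described; the sequences most like the family total are the 5 with the highest Pearson correlation. Sequences and coordinates are RefSeq's (GRCm38.p6), and host genes are from GENCODE M21. Alternatives were other pseudocounts, filters and scalings, limma without trend, the replicate number as a block, isomiRs summed, rows as deposited, and each library left out in turn. Python 3.11.15 with pandas 2.3.3 was used.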

Additional observations from a re-analysis of the deposited data

How the results depend on the processing

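In all alternatives that were run (pseudocounts of 5 and 0.1, no filter, sequences listed in all 6 libraries, both rescalings, limma without trend, replicate block, isomiRs summed, rows as deposited, and each library left out) 0 members and 0 sequences in all were called by limma, with a smallest adjusted p of 0.470 for a member and of 0.1303 over all sequences (without trend). The number of sequences with an unadjusted p under 0.05 ranged from 7 without smooth replicate 2 to 38 without smooth replicate 3, and was 36 of 2704 without a filter, 36 without small-scale topography replicate 2, 22 and 20 without small-scale topography replicates 1 and 3, and 12 as reported. The only member ever among them was miR-15b-5p without smooth replicate 3 (log2 fold change -0.33, unadjusted p = 0.0237, limma adjusted p = 0.470). Of 141 fold changes of members under alternatives, 138 kept their sign. The 3 that did not were miR-503-5p, at -0.18 without small-scale topography replicate 2 and -0.61 without smooth replicate 3, and the miR-16 variant, at 0.47 without small-scale topography replicate 3; the cause was not tested. With 1 library left out, the fold change of miR-503-5p ranged from -0.61 to 0.68, that of the miR-16 variant from -2.30 to 0.47, that of 18-nt miR-15a-5p from 0.04 to 1.02 and that of miR-322-5p from -2.02 to -0.23.

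The log2 difference of the family total ranged from -0.30 to -0.10 with 1 library left out, and was -0.16 after rescaling by the median ratio and -0.09 after rescaling by named microRNAs without miR-21. The difference in 5p share ranged from -0.0918 to 0.00772 percentage points, the highest without smooth replicate 3, and that in the share of end and base forms from -0.202 to 4.22 percentage points, the lowest without small-scale topography replicate 1, and the cause of either change of sign was not tested. Among the checks added after seeing the data, the log2 difference of the miR-15b to miR-15a ratio ranged from -0.63 to -0.29, the difference in 18-nt share of miR-15a from 0.616 to 9.57 percentage points, and the difference in family share of the normalized total from -0.218 to -0.0438 percentage points.

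The deviations of same-numbered libraries from the group means correlated at -0.03, 0.10 and 0.02. Small-scale libraries 2 and 3 correlated best with their own number, and small-scale library 1 with smooth library 3 (0.14). With 3 libraries per group and correlations this low, these values cannot decide whether the libraries were paired. With the replicate number as a block, 0 members and 0 sequences were called (limma, smallest adjusted p = 0.421). In that limma fit 18 sequences had an unadjusted p under 0.05, against 12 without the block. With the same block, the exact permutation p was 0.25 for the family total and 0.75 for the 5p share and for the share of end and base forms. The 18-nt miR-15a-5p had no value of its own with isomiRs summed, and the miR-16 variant and miR-322-5p had none among sequences listed in all 6 libraries. In the fit with trend, the low members were the least precise. The 95% interval of the log2 fold change ran from -0.74 to 0.30 for miR-16-5p. It ran from -4.42 to 2.43 for miR-322-5p, which stood for at most 13 reads in a library. The width and this order also depended on the fit. The SE of the miR-424-5p sequence was 1.41 with trend and 0.498 without, and that of miR-497-5p 0.56 and 0.387. The SE of miR-16-5p was 0.25 with trend and 0.410 without, and that of miR-15b-5p 0.25 and 0.383.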
